A study of Homo sapiens with 7 samples.

Results

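Intronic polyadenylation sites (PASs) of HEK293 cells were examined after knockdown (KD) of 3 nuclear poly(A) polymerases, Star-PAP, PAPα and PAPγ. A site belonged to the group when the deposited tables annotated it as lying in an intron of a RefSeq gene and when its reads, summed over all libraries of its table, were above 50. Members were thus chosen by annotation and read sum, and not by the direction of any change. Of the 76786 sites listed in 3 tables, 2256 sites in 1745 genes were members, of which 1958 were listed for batch 1, 1100 for the double KD and 469 for batch 2. Most of these genes (1377) held 1 member, 267 held 2 and 101 held 3 or more.

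Cleavage and polyadenylation at the end of a gene produces the full-length mRNA. When the machinery acts at a signal inside an intron instead, before that intron is spliced out, the transcript ends early and carries a different last exon. Such RNAs encode proteins with a shortened C terminus or do not encode a stable protein, and several genes of the cleavage machinery itself are known to limit their own expression in this way. Star-PAP, encoded by TUT1, is a noncanonical poly(A) polymerase, and PAPα (PAPOLA) and PAPγ (PAPOLG) are canonical ones.

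HEK293 is an established human embryonic kidney cell line, and every library came from HEK293 cells transfected with siRNA and made from total RNA by 3′READS or its later form 3′READS+, which sequence the RNA next to its poly(A) tail. Batch 1, the name used here for the libraries whose label gives no batch number, held 1 library each of siCtrl (a control siRNA), siStar-PAP, siPAPα and siPAPγ. Cells in which PAPα and PAPγ were knocked down together (the double KD) stood in a table of their own that repeats the siCtrl library of batch 1, and 988 of 989 members present in both tables had the same siCtrl count. Batch 2, made by 3′READS+, held siCtrl and siStar-PAP, so that only these had a second library. The tables held between 2347192 and 16191098 reads at sense sites per library, and the site lists differed between tables, so that a share of a gene in one table is not on the scale of another.

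TUT1 had 83 reads in siCtrl and 2 in siStar-PAP of batch 1, but 6 and 4 in batch 2, a ratio of RPM, the reads scaled to the depth of the library, of 0.792 (95% exact interval 0.164 to 3.34). PAPOLA fell from 71 reads in siCtrl to 12 in siPAPα. PAPOLG had 5 reads in siCtrl and 15 in siPAPγ, an RPM ratio of 2.32 (0.800 to 8.15), and 6 in the double KD. The counts therefore do not show the loss of PAPOLG, and the text speaks of the library labelled siPAPγ. At the protein level the study reports efficient KDs by Western blot, which these few RNA reads do not test. Of the HEK293 genes checked, VIM and KRT18 were well covered in both siCtrl libraries (VIM 1732 and 340 reads, KRT18 30260 and 19824), while KRT8 had 13 and 2 reads and NEFM 35 and 3. The markers of other cell types PTPRC, ALB, PECAM1 and HBB had 0 reads in every library.

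The sites that the results turn on are shown here with their sequence, read from GRCh37, whose coordinates are those of hg19. Capitals mark the polyadenylation signal, the hexamer at which the cleavage complex binds upstream of the cut. For members that lay in no annotated exon, the 101 bases from 70 before to 30 after the listed position are given, 5′ to 3′ on the strand of the gene.
IGF1R, chr15:99491974-99492074, plus strand: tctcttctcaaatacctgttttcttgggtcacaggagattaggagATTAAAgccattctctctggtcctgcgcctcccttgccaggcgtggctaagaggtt
SMC2, chr9:106874295-106874395, plus strand: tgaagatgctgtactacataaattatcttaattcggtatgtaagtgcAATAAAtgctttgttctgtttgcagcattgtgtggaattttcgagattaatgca
MAD1L1, chr7:1936582-1936682, minus strand: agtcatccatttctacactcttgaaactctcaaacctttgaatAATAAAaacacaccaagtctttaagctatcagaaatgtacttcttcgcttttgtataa
MACF1, chr1:39936457-39936557, plus strand: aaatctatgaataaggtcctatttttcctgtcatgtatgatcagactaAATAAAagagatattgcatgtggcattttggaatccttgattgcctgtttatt
CPSF6, chr12:69659020-69659120, plus strand: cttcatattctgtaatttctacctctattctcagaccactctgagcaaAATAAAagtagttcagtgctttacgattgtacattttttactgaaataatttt
SYMPK, chr19:46332924-46333024, minus strand: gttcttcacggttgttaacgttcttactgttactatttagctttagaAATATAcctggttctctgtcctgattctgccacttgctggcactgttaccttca
SF3B1, chr2:198260486-198260586, minus strand: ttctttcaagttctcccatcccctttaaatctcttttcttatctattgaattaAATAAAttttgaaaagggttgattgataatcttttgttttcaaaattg

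For members at the annotated end of another transcript, or inside its last exon, only the 30 bases before the site are given.
NPM1, chr5:170833701-170833730, plus strand: tagctgctcAATAAAtatttgaatgcatca
RCC2, chr1:17765685-17765714, minus strand: ttgggcaccATTAAAgtttttatttttcgt
CDC42, chr1:22416590-22416619, plus strand: aaacaaaggAATAAAaccatcctgtttgaa
CSTF3, chr11:33162978-33163007, minus strand: ttgcaacaacATTAAAacagtttcaatggt
PCF11, chr11:82869891-82869920, plus strand: taaaatttgtgAATAAAacatataaaatat
WDR33, chr2:128522048-128522077, minus strand: tttcattccaAATAAAgaattcagtcttta
PAPOLA, chr14:96999003-96999032, plus strand: tattaaAATAAAattgattgtagacactga
ASCC3, chr6:101304180-101304209, minus strand: aagtatAATAAAttggtgtttttcattctc
FGFR2, chr10:123323841-123323870, minus strand: tcaaacctgagAATAAAccagtgttgctgc
TPM4, chr19:16206288-16206317, plus strand: acaaccgaAATAAAgacgggcagtcctcct

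Each of the sites shown carried a signal hexamer in the 40 bases before it, but they are a selection: of 74 sites named by rule, 8 had none of the hexamers, among them those of MYH14, PBX2, CSNK2A2, INPP5K, CCDC97 and CDK12.

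Most members had an ordinary polyadenylation signal. AATAAA lay within 40 bases upstream of 1237 of the 2256 members (54.8%), ATTAAA of a further 372 (16.5%) and 1 of 10 other variants (on the sense strand, each site counted under 1 hexamer only) of 357 (15.8%). These variants were searched in the order AGTAAA, then TATAAA, then CATAAA, then GATAAA, then AATATA, then AATACA, then AATAGA, then ACTAAA, then AAGAAA and then AATGAA. Of the 18449 sites in the 3′-most exon with a sum above 50, 57.5% had AATAAA, 17.0% ATTAAA and 15.7% another variant. The start of AATAAA stood at a median of 23 bases before the intronic sites (median offset -23) and at -22 in the 3′-most exon. A run of 6 A in the 10 bases after the site was present at 3 members (0.133%) and at 20 sites of the 3′-most exon (0.108%). Only reads with bases of the tail that are not in the genome were counted, and that filter also bears on this rate. The trimer ATA occurred between 100 and 41 bases upstream of 55.1% of members and 57.2% of the other sites.

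A large part of the members were known ends of other transcripts. In GENCODE, 789 members (35.0%) lay within 24 nt of an annotated transcript end, 368 (16.3%) inside a last exon, 39 (1.73%) inside another exon and 1060 (47.0%) in no annotated exon. In the 3′-most exon, 60.5% lay at an annotated end and 4.63% in no exon. In the canonical transcript 2078 members were placed in an intron: 370 in the first and 355 in the last, both counting 26 in a gene's only intron, and 1379 in between. The intron had a median length of 6162 nt, and the site lay a median of 1044 nt from its start. AATAAA was found at 66.8% of the members with an annotated end. The tables also listed 112 members under another gene, 93 of them as a 3′-most exon there, and for these the reads of the neighbouring or overlapping gene cannot be told apart.

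A few sites held a large part of the reads at members. The 10 most-read members held 50.4% of them in siCtrl of batch 1, 61.2% in siStar-PAP of batch 1 and 40.8% in siCtrl of batch 2. In the table of batch 1 the members took 4.47% of the sense reads of siCtrl (95% Clopper-Pearson interval 4.46 to 4.49), 4.74% of siStar-PAP, 3.61% of siPAPα and 3.84% of the library labelled siPAPγ. Without the 10 most-read members these shares were 2.22%, 1.84%, 1.56% and 1.82%, so that siStar-PAP then stood below siCtrl. Members in no annotated exon took 0.668% in siCtrl, against 0.522% in siStar-PAP, 0.396% in siPAPα and 0.456% in the library labelled siPAPγ. The double KD had 3.34% against 4.37% in the same siCtrl library. In batch 2, siStar-PAP had 3.53% (3.51 to 3.56) and siCtrl 3.42% (3.40 to 3.44). The intervals cover counting error only, since PCR reads are not independent molecules, and with 1 library a condition, siCtrl and siStar-PAP apart, the differences have no replicate check.

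**Figure D1:**
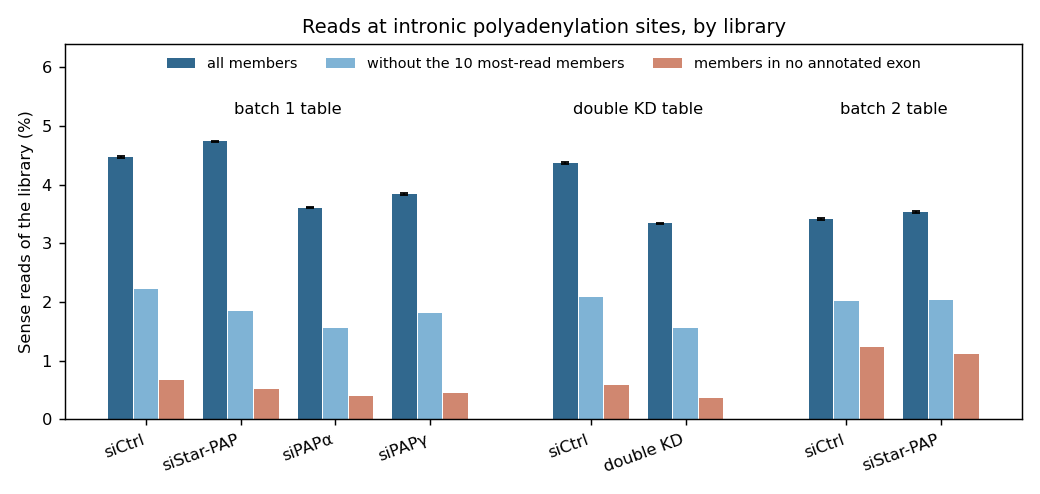
Percentage of the sense reads of each library (vertical axis) at all intronic members, at members other than the 10 with most reads in the table, and at members in no annotated exon, for the libraries of the 3 tables. Error bars are 95% Clopper-Pearson intervals of the first value; siPAPα (3.61%) and the double KD (3.34%) lie below the siCtrl bar of their table (4.47% and 4.37%), and siStar-PAP lies above it in batch 1 (4.74%).

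Of the 10 members with most reads in siCtrl, 9 lay at the annotated end of another transcript, and the site of PTPN9 in no annotated exon. Annotated ends were matched by position and strand, whichever gene the transcript belonged to. Such a site can therefore be the ordinary 3′ end of an overlapping gene, and its share then compares transcripts of different genes. The site in intron 5 of NME1-NME2, a readthrough transcript of nucleoside diphosphate kinase genes, had 58560 of the 186991 sense reads of its gene in siCtrl (31.3%), against 26.2% in siStar-PAP, 18.7% in siPAPα, 25.9% in the library labelled siPAPγ and 65643 of 218510 reads in the double KD. In batch 2, where fewer of its other sites were listed, the same site had 99.2% in siCtrl. For NAP1L1, a nucleosome assembly factor, C17orf81, RPS10-NUDT3, UBOX5, PVRL2 and RPS20, the intronic site was the only one listed in batch 1, and no change within the gene could be measured there. PPP1R7, a regulatory subunit of protein phosphatase 1, had 4796 of 5312 reads (90.3%) at its intronic site in siCtrl, against 96.1% in siStar-PAP, 49.2% in siPAPα, 81.3% in the library labelled siPAPγ and 74.5% in the double KD. RPL31, a ribosomal protein, had at least 88.5% of its reads at the site in all 5 libraries of these tables, but 42.3% in siCtrl and 40.7% in siStar-PAP of batch 2. PTPN9, a tyrosine phosphatase, had 46.7% in siCtrl and 75.0% in siStar-PAP of batch 1, but 39 of 212 reads and 17 of 102 reads in batch 2.

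The share of a member in its gene differed between the tables, with a median of 26.3% in siCtrl of batch 1 and 66.4% in siCtrl of batch 2. In siCtrl of batch 1, 616 of 1958 members had between 5% and 20% of the sense reads of their gene, 540 between 20% and 50%, 431 between 50% and 90% and 148 at least 90%, whereas 25 had 0 reads. In siCtrl of batch 2, 177 of 469 had between 50% and 90% and 124 at least 90%. The members with the highest share, chosen by that value among well-covered genes with another site, were in CCDC61 (907 of 917 reads), SLC16A14 (803 of 813), CDKN2AIPNL (311 of 315), ZNF599 (846 of 858), FAM120C (400 of 410) and CSTF3 (753 of 775). Sites chosen at the top of siCtrl can move little but down. CDKN2AIPNL had 93.1% in siStar-PAP, 56.2% in siPAPα and 48.8% in the library labelled siPAPγ, and the other 5 had at least 88.4% in every library of the batch 1 and double KD tables that listed them. In siCtrl of batch 2, CCDC61 had 26 of 56 reads, ZNF599 53 of 62 and CSTF3 162 of 528.

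The usage of members relative to the rest of the gene was lowered more often than raised in the canonical KDs and raised slightly more often than lowered in siStar-PAP. The relative expression difference (RED) is the log2 ratio, KD over siCtrl, of the reads at the site to the other sense reads of the gene, with 0.5 added to each count, and sites were tested by Fisher's exact test (two-sided), with p-values adjusted by Benjamini-Hochberg over all tested sense sites of the table (adjusted p below 0.05). This test compares 2 libraries, not conditions. In siPAPα 677 of 1912 members tested were lowered (35.4%; 25.0% of all sites tested) and 368 raised (19.2%; 29.1% of all). In the double KD 412 of 1079 were lowered (38.2%; 24.7% of all) and 219 raised (20.3%; 31.8% of all). In the library labelled siPAPγ 490 of 1907 were lowered (25.7%; 19.2% of all) and 323 raised (16.9%; 21.4% of all). In siStar-PAP of batch 1 542 of 1900 were raised (28.5%; 23.2% of all) and 423 lowered (22.3%; 23.4% of all). In batch 2, 83 of 435 were raised (19.1%; 9.07% of all) and 54 lowered (12.4%; 9.87% of all). Members without other reads of the gene in the 2 libraries could not be tested.

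The median RED of members was -0.41 in siPAPα, -0.37 in the double KD and -0.21 in the library labelled siPAPγ, beside 0.19, 0.26 and 0.10 at sites of the 3′-most exon. In siStar-PAP it was 0.10 in both batches, beside -0.01 and -0.03. The spread among members was far wider than these medians, with a middle range from -1.63 to 0.73 in siPAPα and from -1.06 to 1.30 in siStar-PAP of batch 1. Some called members were above the sum of 50 only through the library in which their share was the higher, so that the filter favoured their difference. These were 191 of the 677 lowered and 115 of the 368 raised in siPAPα, 249 of 412 and 123 of 219 in the double KD, 140 of 490 and 75 of 323 in the library labelled siPAPγ, 125 of 423 and 174 of 542 in siStar-PAP of batch 1 and 38 of 54 and 49 of 83 in batch 2. The others numbered 486 lowered and 253 raised in siPAPα, 163 and 96 in the double KD, 350 and 248 in the library labelled siPAPγ, 298 and 368 in siStar-PAP of batch 1 and 16 and 34 in batch 2. Just inside and outside the limit, 27 intronic sites of batch 1 had a sum of 51 and 31 a sum of 50.

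**Figure D2:**
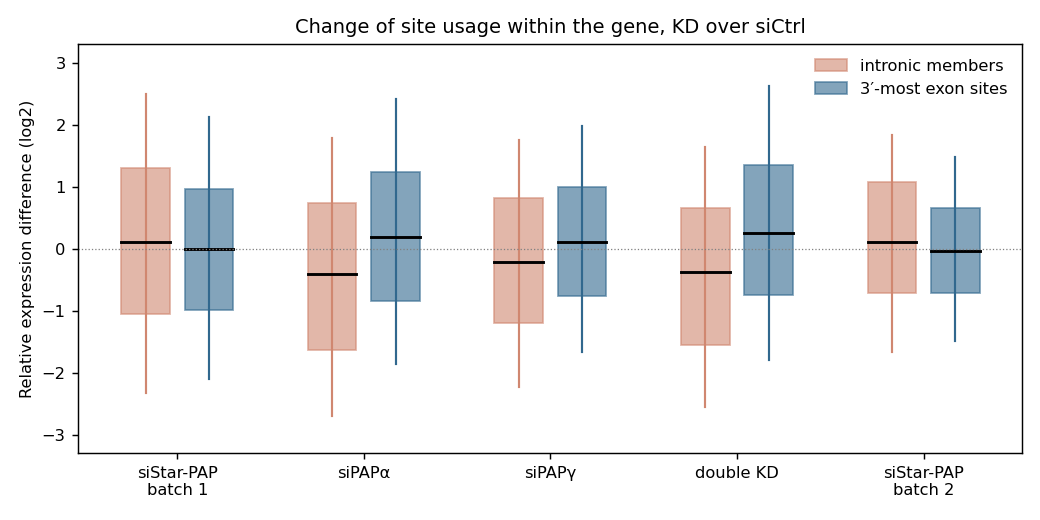
Relative expression difference (log2, KD over siCtrl) of intronic members and of sites in the 3′-most exon in each of 5 comparisons; boxes span the middle 50% of sites, black lines are medians and whiskers reach the 10th and 90th percentiles. The member boxes overlap those of the 3′-most exon everywhere, with the member median lower in siPAPα (-0.41 against 0.19), the library labelled siPAPγ and the double KD and slightly higher in siStar-PAP.

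Levels in RPM, without reference to the gene, were lower than in siCtrl at more members than they were higher in siPAPα, the double KD and the library labelled siPAPγ under each scaling tried, whereas in siStar-PAP the balance turned with the scaling. RPM was scaled to the total of reads with a poly(A) tail (PASS reads) given by the study. More than 2-fold lower RPM than siCtrl was measured at 657 members in siStar-PAP of batch 1 (33.6%; 31.7% of all sites), 822 in siPAPα (42.0%; 26.6% of all), 694 in the library labelled siPAPγ (35.5%; 25.4% of all), 474 in the double KD (43.1%; 28.4% of all) and 67 in siStar-PAP of batch 2 (14.3%; 12.5% of all). RPM was more than 2-fold higher at 304 members (15.5%; 10.0% of all), 236 (12.1%; 14.8% of all), 217 (11.1%; 11.2% of all), 92 (8.36%; 10.7% of all) and 48 (10.2%; 4.92% of all) in the same order. No test was made of these levels. They depend on the scaling: the lower sites made up 68.4% of the changed members in siStar-PAP with PASS read totals but 49.7% with TMM factors, and 77.7% and 63.3% in siPAPα, 76.2% and 57.9% in the library labelled siPAPγ, 83.7% and 68.6% in the double KD and 58.3% and 43.7% in batch 2. The median of all sites itself lay at -0.45 (log2) in siStar-PAP of batch 1 with PASS read totals and at -0.01 with TMM factors. Relative to that median, a difference that no scaling moves, the median log2 change of members was 0.09 in siStar-PAP of batch 1, -0.47 in siPAPα, -0.26 in the library labelled siPAPγ, -0.41 in the double KD and 0.15 in siStar-PAP of batch 2.

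Members near the start of their intron were lowered more often than raised in siPAPα and the double KD. The same held in the library labelled siPAPγ, but there they hardly differed from members as a whole. In siStar-PAP of both batches they were raised more often than lowered. Of the members up to 1000 nt from the start of the intron, 40.3% were lowered and 14.3% raised in siPAPα (n = 889), with a median RED of -0.71. Of those more than 5000 nt away, 24.2% were lowered and 32.4% raised (n = 281), with a median of 0.25. The double KD gave 46.7% lowered and 15.8% raised near the start (n = 480) and 29.2% and 30.6% far from it (n = 144). In siStar-PAP of batch 1 the members near the start were raised at 34.1% and lowered at 17.5% (n = 885), and those far from it at 20.9% and 23.0% (n = 278). Batch 2, with its own siCtrl, gave 25.4% raised and 7.91% lowered near the start (n = 177) and 14.8% and 18.5% far from it (n = 81). In the library labelled siPAPγ 26.6% were lowered and 16.7% raised near the start (n = 886), and 22.5% and 19.3% far from it (n = 280). Over all sites tested, 25.0% were lowered and 29.1% raised in siPAPα, and 24.7% and 31.8% in the double KD. The library labelled siPAPγ had 19.2% and 21.4%. In siStar-PAP 23.2% of all sites were raised and 23.4% lowered in batch 1, and 9.07% and 9.87% in batch 2. These are counts of single-library tests, no test was made between bands, and KDs of batch 1 share one siCtrl library.

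**Figure D3:**
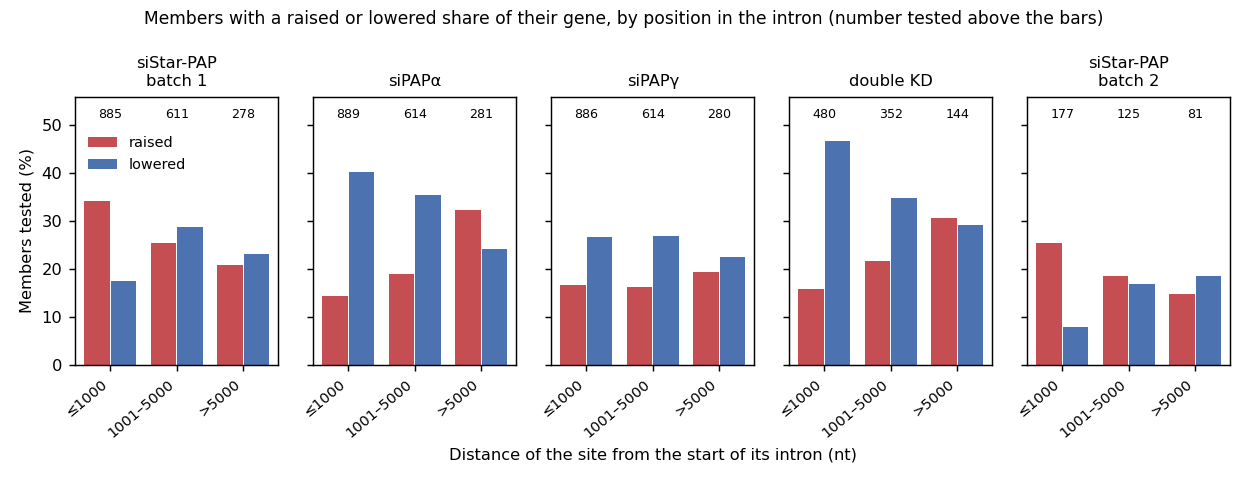
Percentage of tested members with a raised (red) or lowered (blue) share of the sense reads of their gene (vertical axis) against the distance of the site from the start of its intron, in 3 bands, for each of 5 comparisons; the number tested stands above the bars. Near the intron start the blue bar is the taller in siPAPα (40.3%), the double KD (46.7%) and the library labelled siPAPγ (26.6%). In the last of these the middle band has about the same height (26.9%). The red bar is the taller there in siStar-PAP of batch 1 (34.1%) and batch 2 (25.4%).

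Among members in no annotated exon the bands differed in the same way. There, 42.9% near the intron start and 22.5% far from it were lowered in siPAPα, 55.4% and 29.4% in the double KD, and 17.0% and 19.8% in siStar-PAP of batch 1, where 34.1% and 20.3% were raised. Leaving out members of first introns, 38.1% and 23.4% were lowered in siPAPα. In first introns 21.1% of 285 members were raised and 31.6% lowered in siStar-PAP of batch 1, and in last introns 34.6% of 272 were raised and 19.1% lowered; in batch 2 the first introns had 13.0% raised and 14.5% lowered of 69. By type of signal, 34.6% of members with AATAAA, 36.0% with ATTAAA and 35.8% with none of the hexamers were lowered in siPAPα. With ATA upstream 29.9% were raised in siStar-PAP of batch 1, and without it 26.8%. Over all sites tested, 25.0% were lowered in siPAPα and 24.7% in the double KD. In siStar-PAP 23.2% of all sites were raised and 23.4% lowered in batch 1, and 9.07% and 9.87% in batch 2.

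The members with the largest RED in each KD, chosen by that value, are given as a description with no test. In siStar-PAP of batch 1 the largest rises were at sites with 0 or 1 reads in siCtrl. IGF1R, the receptor of insulin-like growth factor 1, had 0 of 329 reads at chr15:99492044 in its last intron in siCtrl, which allows a share of up to 0.912%. In siStar-PAP it had 107 of 482 (22.2%, 18.6 to 26.2), an observed share 24.3-fold above that limit. It had 18 of 381 in siPAPα, 45 of 402 in the library labelled siPAPγ and 14 of 252 in the double KD, and in batch 2, which did not enter the choice, 0 of 94 in siCtrl and 7 of 93 in siStar-PAP. Every KD library thus had reads at a site that neither siCtrl library showed.

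SMC2, a condensin subunit, went from 0 of 204 to 88 of 416 reads in siStar-PAP, with 8 of 433 in siPAPα and 3 of 360 in the library labelled siPAPγ. MYH14, a nonmuscle myosin heavy chain, went from 0 of 201 to 50 of 264, and from 0 of 16 to 12 of 17 in batch 2. ANKRD13D rose from 0 of 1160 to 57 of 389, but had 3 of 61 reads in siCtrl and 0 of 23 in siStar-PAP of batch 2. SIRPA (0 of 260 to 50 of 571) and PELI2 (1 of 52 to 49 of 101) made up the 6. All 6 lay in no annotated exon. Only IGF1R had a sum above 50 in batch 1 without siStar-PAP (63 reads). Without siStar-PAP, MYH14 had 45 reads, ANKRD13D 38, SMC2 11, PELI2 10 and SIRPA 3, so that the filter favoured these rises.

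The largest falls in siStar-PAP were in CDC42, MACROD1, PCDH7, SEC14L1, CLIP4 and RCC2. In batch 1, CDC42, SEC14L1 and RCC2 passed the filter on the sum of reads only through siCtrl (11, 49 and 30 reads without it). The filter thus favoured their falls, while MACROD1, PCDH7 and CLIP4 passed it without siCtrl. CDC42, a small GTPase, had 60 of 772 reads (7.77%, 5.98 to 9.89) at chr1:22416620, inside an alternative last exon, in siCtrl. It had 0 of 1343 in siStar-PAP, where the limit of 3 reads lies 34.8-fold below the observed siCtrl share. It had 6 of 1818 in siPAPα, 5 of 1231 in the library labelled siPAPγ and 7 of 1355 in the double KD, and in batch 2 46 of 220 in siCtrl and 1 of 159 in siStar-PAP. RCC2, a regulator of chromosome condensation family member, had 38 of 148 reads (25.7%) in siCtrl, against 2.79% in siStar-PAP, 0.262% in siPAPα, 1.42% in the library labelled siPAPγ and 1.67% in the double KD, and in batch 2 10.0% in siCtrl against 0.834% in siStar-PAP. In both genes each KD library was below its siCtrl. MACROD1 fell from 58.5% to 1.98% in siStar-PAP and stood at 32.9% in siPAPα and 47.5% in the library labelled siPAPγ. PCDH7, a protocadherin, fell from 45.1% to 3.08% and had 1 of 56 and 3 of 33 reads in siCtrl and siStar-PAP of batch 2. SEC14L1 fell from 28.9% to 2.64%, and from 68.2% to 45.2% in batch 2.

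In siPAPα the largest rises began from 0 to 2 reads in siCtrl. RPRD1A, which binds the C-terminal domain of RNA polymerase II, had 0 of 397 reads in siCtrl and 65 of 503 in siPAPα, with 0 reads at this site in siStar-PAP and in the library labelled siPAPγ. IREB2, an iron regulatory protein, went from 0 of 317 to 79 of 634, with 3 of 482 in siStar-PAP, 0 of 319 in the library labelled siPAPγ and 8 of 356 in the double KD. RASEF (0 of 165 to 52 of 256), NEO1 (0 of 103 to 66 of 236), GMDS (2 of 325 to 68 of 418) and ZNF559-ZNF177 (1 of 67 to 69 of 197) followed. The siCtrl library of batch 2 had 54 of 76 reads at the GMDS site and 7 of 11 at that of ZNF559-ZNF177, so that the low control share was seen in 1 library, while NEO1 had 0 of 26 there. All 6 sites had a sum above 50 only through siPAPα. Of the 6, RPRD1A, RASEF, NEO1, GMDS and ZNF559-ZNF177 lay more than 5000 nt from the start of the intron, at 14075, 24888, 12511, 36481 and 5263 nt.

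The KDs of batch 1 and the double KD share 1 siCtrl library, so that a count that was high or low there enters each of their comparisons. Among the largest falls in siPAPα, MACF1, a cytoskeletal crosslinker, had 63 of 129 reads (48.8%, 39.9 to 57.8) at its site in siCtrl, against 0 of 48 in siStar-PAP, 0 of 220 in siPAPα, 1 of 85 in the library labelled siPAPγ and 6 of 217 in the double KD. In batch 2, however, siCtrl itself had 1 of 65, so that the high level was seen in 1 library. TPM4, a tropomyosin, had 19.1% in siCtrl, against 2.43% in siStar-PAP, 0.565% in siPAPα and 0.197% in the library labelled siPAPγ, with 6 of 17 and 4 of 11 reads in batch 2. FAM125A fell from 23.8% to 0.941% in siPAPα, while the batch 2 libraries had 23.3% and 22.4%. FAM20C, a secretory-pathway kinase, had 80 of 628 reads in siCtrl, 0 of 223 in siPAPα and 0 of 125 in the library labelled siPAPγ, and 15 of 68 against 0 of 26 in batch 2. TTI1, a cofactor of PIKK kinases, kept its share in siStar-PAP (50.8% in siCtrl, 57.7%) and had 3.58% in siPAPα, 12.6% in the library labelled siPAPγ and 8.42% in the double KD. The siCtrl library of batch 2 itself had 14 of 215 reads there. MACF1, TPM4 and FAM20C passed the filter on the sum of reads only through siCtrl (1, 24 and 14 reads without it). The filter thus favoured their falls, while FAM125A and TTI1 passed it without siCtrl (81 and 149 reads).

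In the library labelled siPAPγ the largest rises included NPM1, the nucleolar protein nucleophosmin, at the end of a short isoform in intron 9 (chr5:170833731). It had 79 of 687 reads in siCtrl (11.5%, 9.21 to 14.1), against 736 of 1510 in siStar-PAP (48.7%), 1409 of 2214 in siPAPα (63.6%) and 757 of 1096 in the library labelled siPAPγ (69.1%). The site was listed 4 bases downstream in the other tables, with 1007 of 1472 (68.4%) in the double KD and, in batch 2, 217 of 418 (51.9%) in siCtrl and 1169 of 1314 (89.0%) in siStar-PAP. EXD3 rose from 16.0% to 76.6%, ASCC3 from 6.11% to 44.2%, PBX2, a homeodomain protein, from 8.85% to 53.9%, CRTC3 from 3.23% to 24.5% and SPIRE1, an actin nucleator, from 3.65% to 27.4%. SPIRE1 had 34.9% in siStar-PAP of batch 1 and 39.4% in siPAPα, but 1.33% in siCtrl and 1.02% in siStar-PAP of batch 2. PBX2 had 55.6% in siStar-PAP of batch 1, and 6.12% in siCtrl against 23.5% in siStar-PAP of batch 2. The largest falls were in TPM4, MACF1, FAM20C, FGFR2, MAD1L1 and ERGIC1. All of these sites passed the filter on the sum of reads in batch 1 only through siCtrl. Without siCtrl, TPM4 had 24 reads, MACF1 1, FAM20C 14, FGFR2 34, MAD1L1 19 and ERGIC1 41, so that the filter favoured these falls. MAD1L1, a spindle checkpoint protein, had 142 of 237 reads in siCtrl, against 4 of 46 in siStar-PAP, 11 of 180 in siPAPα, 4 of 83 in the library labelled siPAPγ and 8 of 127 in the double KD, and 77 of 124 against 7 of 21 in batch 2.

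In the double KD the largest rises were in LOC339290 (0.877% to 20.2%), NPM1, ST20-MTHFS (1.45% to 15.7%), NAA60 (3.07% to 29.4%), SLC38A10 and CSNK2A2 (7.32% to 44.9%). SLC38A10, a sodium-coupled amino acid transporter, had 137 of 2390 reads (5.73%) in siCtrl and 684 of 1668 (41.0%) in the double KD, 38.9% in siStar-PAP, 38.3% in siPAPα and 27.1% in the library labelled siPAPγ, and in batch 2 25.0% in siCtrl and 58.9% in siStar-PAP. ST20-MTHFS had 0.582% in siStar-PAP and 12.1% in siPAPα. In siCtrl of batch 2, LOC339290 had 56 of 58 reads at the site (96.6%) and ST20-MTHFS 576 of 753 (76.5%), so that their low control share was seen in 1 library, while NAA60 had 4.05% and CSNK2A2 7.89%. The largest falls were in MOV10, an RNA helicase (118 of 200 reads to 0 of 168), INPP5K (124 of 391 to 0 of 235), CCDC97 (35.0% to 1.41%), MACF1, ZFP41 (42.2% to 2.65%) and DDB2, a damage-binding protein (14.3% to 0.670%). For MOV10 the limit of 3 reads in the double KD lies 33.0-fold below the observed siCtrl share. MOV10, CCDC97 and ZFP41 had 14.5%, 3.50% and 14.8% in siPAPα but 49.8%, 27.8% and 40.1% in siStar-PAP. In siCtrl of batch 2, MOV10 had 8 of 67 reads, INPP5K 2 of 45, ZFP41 35 of 84 and DDB2 36 of 226. In the double KD table all the falls named here were above the sum of 50 only through siCtrl. Without siCtrl, MOV10 and INPP5K had 0 reads, CCDC97, ZFP41 and DDB2 had 4 and MACF1 had 6. The rises in LOC339290, ST20-MTHFS, NAA60 and CSNK2A2 were above it only through the double KD (1, 10, 5 and 15 reads without it). The filter thus favoured these differences.

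**Figure D4:**
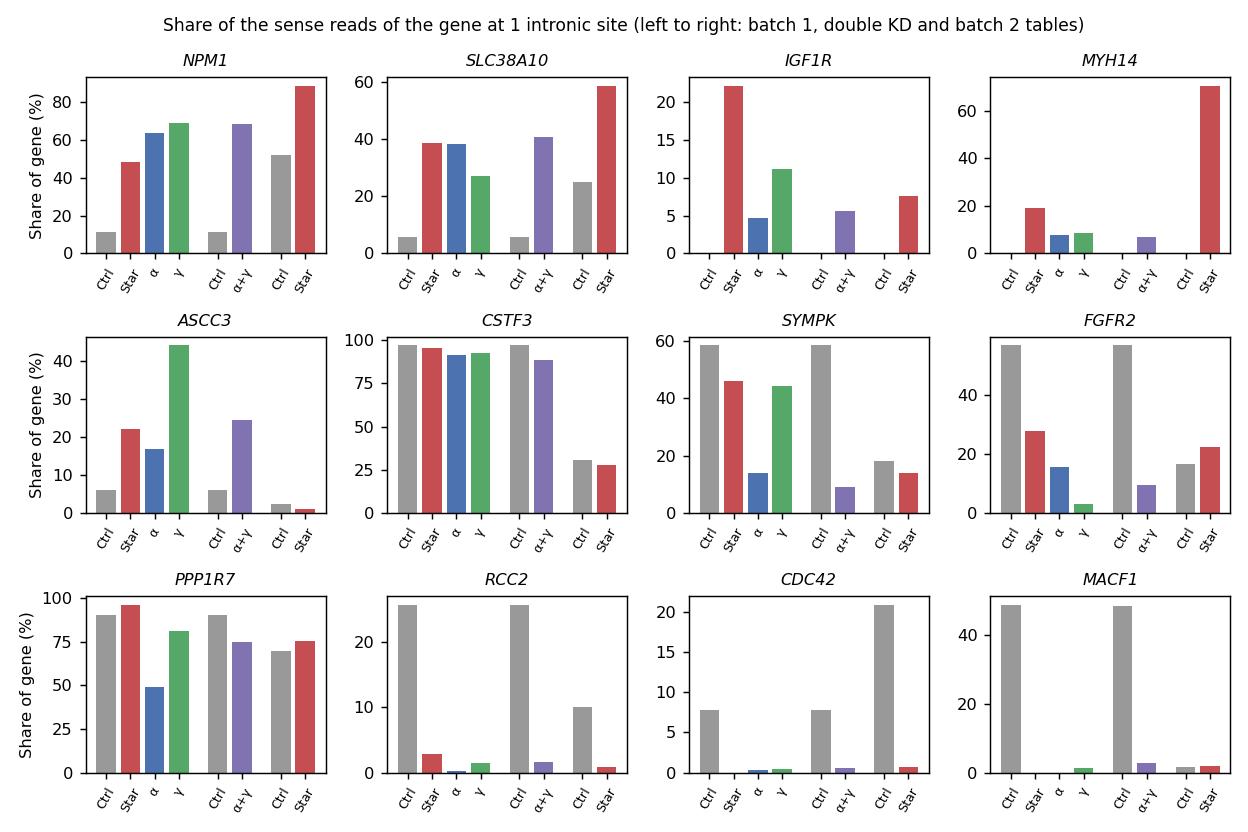
Share of the sense reads of the gene (vertical axis, percent, scale differing between panels) at 1 intronic site of each of 12 genes, in siCtrl (Ctrl), siStar-PAP (Star), siPAPα (α), the library labelled siPAPγ (γ) and the double KD (α+γ); the groups of bars from left to right are the tables of batch 1, the double KD and batch 2, and each bar is 1 library (for NPM1, the position each table lists). NPM1 and SLC38A10 rise over siCtrl in every KD library, RCC2 and CDC42 fall in every one, and MACF1 is high in the siCtrl library of batch 1 alone.

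Genes of the cleavage and polyadenylation machinery held 11 members, in 8 of the 22 genes of a list of its factors. In siPAPα 6 of 10 tested were lowered and 0 raised (25.0% and 29.1% of all sites; median RED -0.82, and 0.11 over all sites). In the double KD 5 of 9 were lowered and 2 raised (24.7% and 31.8% of all sites), in the library labelled siPAPγ 3 of 10 lowered and 0 raised (19.2% and 21.4%), and in siStar-PAP of batch 1 3 of 10 lowered and 2 raised (23.4% and 23.2%). The filter on the sum of reads favoured most of the double KD calls. CPSF6, WDR33 and the lowered SYMPK site passed it only through siCtrl (39, 34 and 8 reads without it). Both raised sites, in RBBP6 and SYMPK, passed only through the double KD (18 and 39 reads without it). The falls in CSTF3 and PCF11 did not depend on it. In siStar-PAP a raised RBBP6 site passed only through siStar-PAP (35 reads without it). Over all members 35.4% were lowered in siPAPα and 38.2% in the double KD. In batch 2, 2 were tested and neither passed. The list was drawn up with earlier results of these data known.

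CSTF3, a subunit of the cleavage stimulation factor whose intron 3 site limits its own expression, had 753 of 775 reads at that site in siCtrl (97.2%, 95.7 to 98.2). The share was 95.7% in siStar-PAP, 91.5% in siPAPα, 92.5% in the library labelled siPAPγ and 88.4% in the double KD, and the last 3 passed Fisher's exact test (adjusted p = 5.36e-08, 3.09e-05 and 6.65e-15). RPM at the site was higher in these KD libraries (93.8, 96.1, 98.0 and 127 in the same order) than in siCtrl (65.9). The lower share thus did not go with a lower level of the site. The batch 2 libraries had a share of only 30.7% (siCtrl) and 27.6% (siStar-PAP). CPSF6, a subunit of cleavage factor I, had 16.7% at its last-intron site in siCtrl, against 8.79% in siStar-PAP, 5.10% in siPAPα, 8.55% in the library labelled siPAPγ and, against 14.9% in that table, 2.57% in the double KD, a table in which it was above the sum of 50 only through siCtrl. WDR33, which contacts the AAUAAA signal, had 113 of 1308 reads (8.64%) in intron 6 in siCtrl and between 4.43% and 5.58% in the 3 single KDs of batch 1, and 2.06% in the double KD. In the double KD table WDR33 too was above the sum of 50 only through siCtrl (34 reads without it).

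SYMPK, the scaffold symplekin, held 2 members that moved apart. The site in intron 13 had 109 of 186 reads in siCtrl (58.6%), against 45.9% in siStar-PAP, 13.8% in siPAPα (adjusted p = 9.04e-09 by Fisher's exact test), 44.2% in the library labelled siPAPγ and 8.99% in the double KD. In the double KD table the intron 13 site was above the sum of 50 only through siCtrl (8 reads without it). The site in intron 22 had 21.0% in siCtrl and 59.6% in the double KD, through which alone it was above the sum of 50 in that table, with 29.3% in siPAPα. In siCtrl of batch 2 the sites had 8 and 3 of 44 reads. PCF11, a termination factor, had 37 and 65 of 124 reads at sites 1205 and 1248 nt into its first intron in siCtrl. The first of these had 8.28% in siPAPα against 29.8% in siCtrl (adjusted p = 2.49e-05), and 28.3% in the double KD. In batch 2 the first held 3 of 170 reads in siCtrl, and the second held 143 of 170 reads in siCtrl and 106 of 124 in siStar-PAP.

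RBBP6, a ubiquitin ligase of the complex, had 18.8% of its reads at an intron 3 site in siCtrl and 42.4% in the double KD, against 3.15% in siCtrl of batch 2. Its site in intron 9, which lies 4 nt past the exon, had 6 of 96 reads in siCtrl and 33 of 137 in siStar-PAP. Both were above the sum of 50 only through the library in which they are given as higher (18 and 35 reads without it), so that no test is given for them. PAPOLA itself had a member 47 nt into intron 9, with 34 of its 71 reads in siCtrl, against 31 of 44 in siStar-PAP, 4 of 12 in siPAPα and 26 of 66 in the library labelled siPAPγ, and 0 of 8 in the double KD. Reads of the targeted gene were few in its own KDs. In siPAPα the share did not pass the test (adjusted p = 0.628), and in the double KD table the site had a sum under the limit and was not tested. In siStar-PAP the share of PAPOLA passed the test (adjusted p = 0.0455 by Fisher's exact test). SSU72, a phosphatase of the complex, had 2.78% in siCtrl and 1.79% in the double KD (adjusted p = 0.0762).

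Among 9 genes known for intronic polyadenylation, 4 held members: CSTF3, RBBP6, PCF11 and ASCC3. ASCC3, a helicase subunit with a known short isoform, had 31 of 507 reads at its intron 3 site in siCtrl, against 17 of 77 in siStar-PAP, 72 of 425 in siPAPα, 72 of 163 in the library labelled siPAPγ and 40 of 164 in the double KD. The adjusted p was 0.000160 in siStar-PAP and 9.49e-07 in siPAPα, but in batch 2 the site had 4 of 174 reads in siCtrl and 1 of 97 in siStar-PAP. Of the 17 splicing and elongation factors that limit early polyadenylation, CDK12 and SF3B1 held a member each. SF3B1, a core subunit of the U2 snRNP, had 5 of 657 reads in siCtrl and 85 of 1094 in siPAPα, with 0 of 722 in siStar-PAP, 2 of 607 in the library labelled siPAPγ and 3 of 772 in the double KD. Without siPAPα its sum over the table is 7 reads, so that it was kept only through the library in which it is high, and no test is given for it. CDK12, the elongation kinase, passed the test in none of the 3 comparisons in which it was tested (adjusted p between 0.0861 and 0.835).

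Of 18 long DNA repair genes, FANCI, RAD51C and ERCC6 held a member. RAD51C had 20.2% of its reads at the end of a short isoform in siCtrl, against 33.5% in siStar-PAP, 6.87% in siPAPα, 11.6% in the library labelled siPAPγ and, against 19.8% in that table, 3.60% in the double KD. In batch 2 it had 9 of 185 reads in siCtrl and 17 of 107 in siStar-PAP. The 3 differences of batch 1 passed Fisher's exact test (adjusted p = 0.00672, 1.15e-07 and 0.0198), and in the double KD table the site was above the sum of 50 only through siCtrl. ERCC6, the Cockayne syndrome B protein, kept most of its reads at its first-intron site (63 of 90 in siCtrl, against 37 of 43 in siStar-PAP and 18 of 33 in siPAPα), with no call. FANCI had all 2789 of its batch 1 siCtrl reads at the intronic site, the only one listed there. Of 20 receptor tyrosine kinases, IGF1R and FGFR2 held a member. FGFR2, a fibroblast growth factor receptor, had 92 of 162 reads at the end of a truncated form in intron 4 in siCtrl, against 20 of 72 in siStar-PAP, 12 of 78 in siPAPα, 2 of 65 in the library labelled siPAPγ and 10 of 107 in the double KD, and 2 of 12 and 2 of 9 in batch 2. Its site passed the filter on the sum of reads only through siCtrl (34 reads without it in batch 1).

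Members of one gene often moved in opposite directions. Of the genes with 2 or more members past the test, 71 of 104 had members in both directions in siStar-PAP of batch 1, 71 of 111 in siPAPα, 63 of 88 in the library labelled siPAPγ and 41 of 53 in the double KD. Reads of one site enter the rest of the gene for another, so that opposite signs are partly built into the measure. SIN3B, a corepressor scaffold, held the most members, 9, of which 8 lay in intron 8. At chr19:16968233 its share rose from 8.72% in siCtrl to 22.9% in siStar-PAP (adjusted p = 4.88e-06 by Fisher's exact test) and was 5.88% in siPAPα. At chr19:16968099 it was 3.12% in siCtrl and 11.0% in siPAPα, 13.7% in the library labelled siPAPγ and 17.0% in the double KD. At chr19:16967914, 185 bases upstream, it fell from 11.2% to 3.31% in siStar-PAP, 2.41% in siPAPα and 5.02% in the library labelled siPAPγ.

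The siStar-PAP comparisons of the 2 batches, which share no library, moved most of the members compared in the same direction. Of the members raised in batch 1 and covered by at least 20 reads in batch 2, 97 of 135 (71.9%) had a positive RED there, and of those lowered 92 of 130 (70.8%) had a negative one. Over all sense sites the corresponding shares were 59.8% and 60.3%. Across 223 members tested in both batches the RED gave a Pearson's r of 0.389 and a Spearman's rho of 0.419, across sites, which are not independent replicates. 53 members passed the test in both batches, 23 raised in both, 18 lowered in both and 12 in opposite directions. The siCtrl share itself differed by more than 50 percentage points between the batches at 46 of the 223, where the protocols and the lists of other sites also differed.

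**Figure D5:**
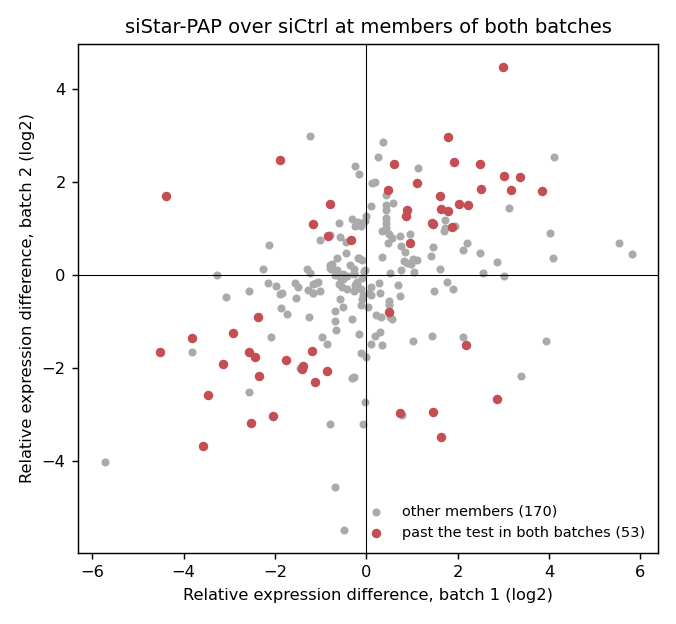
Relative expression difference (log2) of siStar-PAP over siCtrl in batch 1 (horizontal axis) and in batch 2 (vertical axis) at the 223 intronic members tested in both; each point is 1 site, red where it passed Fisher's exact test in both batches. Of the 53 red points, 41 lie in the quadrants of equal sign (23 raised, 18 lowered) and 12 in the others.

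Read counts were also fitted over both batches with edgeR (quasi-likelihood test, batch as a block, Benjamini-Hochberg adjustment), the one test here with a second library per condition. Of 1164 members tested, 18 rose and 10 fell, beside a rise at 0.902% and a fall at 0.902% of all 13743 sites. AGBL5, a carboxypeptidase that removes polyglutamate side chains, rose at 2 sites: one had 35 and 487 reads in siCtrl and siStar-PAP of batch 1 and 8 and 67 in batch 2 (log2 change 3.62, adjusted p = 0.000349), and the other 0 and 229, and 2 and 8 (adjusted p = 0.00577). IGF1R, MYH14, SLC38A10, PBX2 and LOC339290 from the sites above were among the rises. SLIT2, an axon guidance ligand, had 34 and 192 reads in batch 1 and 0 and 37 in batch 2, DYRK4, a kinase, 7 and 172, and 5 and 11, and TMED4 78 and 280, and 144 and 381. TFDP1, a partner of E2F factors, had 122 and 350 reads and 36 and 99. COQ4, of coenzyme Q synthesis, had 1859 and 6452 reads, and 322 and 554 (log2 change 1.46, adjusted p = 0.0225).

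The falls included MAD1L1 (142 and 4 reads, and 77 and 7; log2 change -4.06, adjusted p = 0.00194), CDC42 (adjusted p = 0.00311) and SEC14L1 (-2.31, adjusted p = 0.0374). PDLIM7, a PDZ-LIM scaffold, had 617 and 177 reads in batch 1 and 416 and 80 in batch 2 (-1.92, adjusted p = 0.00577). CDH23, a cadherin, had 322 and 77, and 33 and 4 (-2.30, adjusted p = 0.0281), and VRK3, a kinase, 458 and 183, and 611 and 180 (-1.37, adjusted p = 0.0403). The members named in this and the preceding paragraph beyond those given earlier were chosen after their values were seen. At an unadjusted p below 0.05, 84 members rose and 86 fell. MYH14, MAD1L1, CDC42 and SEC14L1 were above the sum of 50 in batch 1 only through the higher of siCtrl and siStar-PAP (45, 19, 11 and 49 reads without it). In batch 2, SEC14L1 and MAD1L1 likewise passed only through siCtrl (28 and 7 reads without it). The choice of members thus favoured these changes, and their adjusted p-values are given as description only. The first AGBL5 site, SLC38A10 and TFDP1 passed in batch 2 only through siStar-PAP (8, 35 and 36 reads without it), but in batch 1 without it. A count fit does not separate the site from the level of its gene.

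Usage within the gene, tested over both batches in edgeR (diffSpliceDGE with the same block), called 3 of 841 members, and these were the only calls among 7486 sites (a rise at 0.0134% and a fall at 0.0267% of them). RCC2 fell by 2.36 on the log2 scale relative to its gene, with 38 and 19 reads in siCtrl and siStar-PAP of batch 1 and 166 and 18 in batch 2 (adjusted p = 0.0367). CDC42 fell with 60 and 0 reads, and 46 and 1, and IGF1R rose with 0 and 107 reads, and 0 and 7, at the same adjusted p. RCC2 and CDC42 were above the sum of 50 in batch 1 only through siCtrl, where they were high (30 and 11 reads without it), and RCC2 in batch 2 likewise (18 reads), so that the choice of members favoured these falls. The fitted changes of the last 2 rest on libraries with 0 reads and are not given as folds. The fit has 1 residual degree of freedom, and without the batch block, with RLE factors, or with sites matched within 24 nt, usage called 0 members.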

How the data were processed

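Libraries of HEK293 cells were sequenced by 3′READS (5 libraries) or 3′READS+ (batch 2, 2 libraries). The deposited tables hold counts of reads per PAS and library; for these the authors used bowtie2 and hg19, retained reads that mapped to 1 place and carried untemplated Ts from the tail, clustered nearby cleavage positions, removed sites of low abundance and annotated sites with RefSeq. Clustering and site removal were done per table, so a gene's listed sites, and with them a share, differ between tables.

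From these counts, rows annotated as intronic were made unique by site and kept when the sum over the table's libraries was above 50. Share of the gene's sense reads, the relative expression difference (0.5 added to each count) and a two-sided Fisher's exact test (scipy 1.17.1) adjusted by Benjamini-Hochberg over all tested sense sites were computed per KD against the siCtrl column of the same table. RPM used PASS read totals from the study's supplement. siStar-PAP was also fitted over both batches with edgeR 4.0.16 (TMM, quasi-likelihood, batch block, 1 residual degree of freedom; diffSpliceDGE for usage), with DESeq2 1.42.0 as an alternative; both calculations were tested on simulated data. Pairing by batch number comes from the labels, which mark a batch shared by siCtrl and siStar-PAP. Whether libraries came from separate cultures is not given in the sources used here. The Fisher p-values compare 2 libraries and measure the counting error of reads only, with no spread between libraries. The edgeR p-values measure the spread between these libraries only, with 1 residual degree of freedom. Sites were placed in GENCODE 44 lifted to GRCh37, and sequences were read from GRCh37. Intervals are Clopper-Pearson at 95% and, like the limit of 3 reads for a count of 0, cover counting error only.

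Named sites were the 10 with most reads in siCtrl, the 6 with the highest share there, the 6 largest rises and 6 largest falls per KD among called and well-covered members, those called by the usage fit and the members of 5 gene lists. Members and lists were chosen with earlier results of these data known. The results of 2 genes and the sequence at 1 site are not reported here. Alternatives covered scaling, filters, site merging, the comparison sites, the block and single libraries.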

Additional observations from a re-analysis of the deposited data

Results flagged for a closer look

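Of the 53 members past Fisher's exact test in both batches of siStar-PAP, 12 moved in opposite directions, and the difference between the batches was not tested. The values of 11 of them are given as the relative expression difference (log2) in batch 1 and then in batch 2. Raised in batch 1 and lowered in batch 2 were INPP5A (0.73 and -2.98), INPP5E (2.18 and -1.52), PNKD (1.47 and -2.95), ELOVL5 (1.63 and -3.49) and ZNF461 (2.86 and -2.68). Lowered in batch 1 and raised in batch 2 were NEK9 (-1.89 and 2.47), ARMC8 (-0.79 and 1.51), SAMD11 (-0.83 and 0.83), USP33 (-4.39 and 1.70), ATPAF1 (-0.34 and 0.74) and TSPAN3 (-1.17 and 1.08).

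For 2 of these genes the siCtrl values of each batch are given as well. ELOVL5, a fatty acid elongase, had 12 of 134 reads at the site in siCtrl of batch 1 and 56 of 57 in siCtrl of batch 2. USP33, a deubiquitinase, had 9 of 28 and 71 of 123, with 0 of 21 in siStar-PAP of batch 1.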

How the results depend on the processing

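No result with a test changed direction under the alternatives run, while the balance of higher and lower RPM in siStar-PAP turned with the scaling. With a sum above 200 in place of 50, raised and lowered shares were counted at 192 and 159 members in siStar-PAP, 145 and 253 in siPAPα, 134 and 195 in the library labelled siPAPγ, 82 and 127 in the double KD and 26 and 16 in batch 2, since fewer sites were tested; RPM was more than 2-fold higher and lower at 62 and 167, 52 and 223, 47 and 178, 21 and 121, and 8 and 12. TMM factors gave more than 2-fold higher RPM at 464 members in siStar-PAP, 369 in siPAPα, 342 in the library labelled siPAPγ and 158 in the double KD, and DESeq2 size factors at 468, 358, 330 and 167. A fold of 1.5 gave 381 higher in siPAPα, 349 in the library labelled siPAPγ, 152 in the double KD and 88 in batch 2, and 131 lower in batch 2. Comparison with the 3′-most exon alone, an added 2-fold limit, sites merged within 50 nt, sites above 5% of the gene and members of a single gene each kept the counts of raised and lowered shares within 1.5 times; the last of these was chosen after seeing the data.

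With all intronic sites, the pooled share was 4.90%, 5.05%, 3.84% and 4.14% in batch 1 (siCtrl, siStar-PAP, siPAPα and the library labelled siPAPγ), 5.08% and 3.77% in the double KD table and 4.66% and 4.57% in batch 2, so that in batch 2 siStar-PAP then stood below siCtrl. Without the 10 most-read members it was 2.22%, 1.84%, 1.56% and 1.82%, 2.09% and 1.55%, and 2.02% and 2.04%.

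Over both batches, edgeR called 18 members up and 10 down in counts with the replicate block for batch and 0 and 0 without it (10 and 5 at an unadjusted p below 0.05). DESeq2 called 9 and 5, with no adjusted p for 8260 sites. Usage calls fell from 1 rise and 2 falls to 0 and 0 without the replicate block (2 and 3 at an unadjusted p below 0.05), with RLE factors (chosen after seeing the data) and with sites matched within 24 nt (35 and 25, and 40 and 27, at an unadjusted p below 0.05); IGF1R, CDC42 and RCC2 then missed the threshold, and each kept its direction within either batch. The cause was not tested. Leaving out 1 library, fitted without the block and taking the lone library to vary like the other group, gave 0 count calls in every fit, and usage calls between 0 and 0 for rises and between 0 and 1 for falls, the 1 without siCtrl of batch 2.

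In batch 2, 435 members were tested, in the double KD 1079 and in siStar-PAP of batch 1 1900; the sums ran over 2, 2 and 4 libraries, and the part of depth in this was not tested.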
